A study of Mus musculus with 6 samples.

Results

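The genes described here encode the machinery that builds and loads the primary cilium: the intraflagellar transport (IFT) complexes, the motors that pull them, the BBSome with its chaperonins and GTPases, and proteins that carry Hedgehog signaling through the cilium. They were chosen by name, as 41 genes in 9 groups, from the 54418 gene identifiers of the count data. Each was matched to 1 identifier by its symbol in the GRCm38 annotation, and they lie on 17 chromosomes. The RNA came from mammary epithelial cells that were sorted by FACS from C57BL/6 female mice aged 4 weeks. A group of 3 mice was wild type (*Glis2*+/+, called WT here) and a group of 3 carried a germline knockout of *Glis2* (*Glis2*-/-, called KO), a transcription factor of the GLI-similar family, with 1 library per mouse. The knockout was present in every cell of the mouse, so that the sorted cells had developed in a mutant gland. Antibodies against TER-119, CD31, CD45, CD24 and CD49f were used to sort, and the labels do not say which of the resulting gates was sequenced.

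A primary cilium is a single antenna of microtubules that grows from the mother centriole of a resting cell. Proteins cannot be made inside it, so trains of IFT-B and IFT-A particles carry cargo outward on kinesin-2 and back on dynein-2. The BBSome rides on these trains and takes membrane receptors out of the cilium. In vertebrates Hedgehog signaling passes through this organelle. In the mammary gland, primary cilia are known from basal and stromal cells, and the study asked how they act through GLIS2 on mammary stem cells. The comparison of genotypes asks whether the RNA of this machinery differed when *Glis2* was lost.

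Many ciliary genes are bound by RFX transcription factors at a sequence called the X-box, which is made of inverted half-sites. RefSeq promoter windows, which span 250 bases before to 50 bases after each start in GRCm38.p6, were at hand for 37 of the 41 genes. The paired form searched was GTNNCC, then 0 to 3 bases, then GGNNAC, which reads alike on both strands. It occurred in 6 of these 37 genes (16.2%) and in 4.38% of the 27025 genes with a window. In 4 of the 6 every match lay before the start, and these matches are shown, with the paired motif in capitals, because they lie upstream of the start.
Bbs7, chr3:36613489-36613518, minus strand, 121 bases before the start: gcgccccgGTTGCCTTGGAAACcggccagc
Ift22, chr5:136908079-136908108, plus strand, 63 bases before the start: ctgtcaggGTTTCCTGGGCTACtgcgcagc
Ift22, chr5:136908109-136908138, plus strand, 33 bases before the start: tgttcccgGTCGCCGTGGAAACtgaccagc
Ift57, chr16:49699199-49699228, plus strand, 87 bases before the start: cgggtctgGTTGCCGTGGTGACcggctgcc
Ift57, chr16:49699226-49699255, plus strand, 60 bases before the start: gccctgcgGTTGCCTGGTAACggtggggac
Wdr19, chr5:65199654-65199683, plus strand, 34 bases before the start: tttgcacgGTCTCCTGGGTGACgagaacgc
*Bbs1* and *Bbs4* held the pair just after their starts.

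A narrower form, GTTNCC, then 0 to 3 bases, then GGNAAC, occurred in 5.41% of the 37 genes and in 0.936% of all genes with a window. The single half-site GTTGCC, on either strand, was found in 14 of the 37 genes (37.8%), against 14.1% of all genes. The half-site and the pair share letters, and 3 genes held both. CCAAT, the letters bound by NF-Y, occurred on either strand in 24 of the 37 genes (64.9%) and in 41.1% of all genes. TGGGGGGT, letters close to those described for GLIS proteins, occurred in 0 of the 37 genes and in 1.79% of all genes. These 5 motifs were chosen with the expression values known. A match is a description of the letters and does not show that a factor binds there.

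Another feature of position was shared by several of the genes. A protein-coding gene started in the opposite direction close by, no more than 1000 bases upstream or with starts that overlap by fewer than 200 bases, for 9 of the 41 genes (22.0%) and for 7.91% of 22028 protein-coding genes. The starts of *Ift20* and *Tnfaip1* lie 29 bases apart, those of *Ift46* and *Arcn1* 63, those of *Dync2h1* and *Dcun1d5* 74 and those of *Ift122* and *Mbd4* 99. The other pairs are *Ift140* with *Cramp1l*, *Ift80* with *Smc4*, *Cluap1* with *1700037C18Rik*, *Bbs12* with *Cetn4* and *Arl3* with *Sfxn2*. The limits for this count were set after the data had been seen.

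Total counts lay between 24996524 and 31393917 per library. Before the comparison, the targeted gene was checked. *Glis2* stood at 21.7, 23.2 and 19.6 CPM (counts per 1000000 counts of a library, scaled by TMM) in the WT libraries and at 10.1, 16.99 and 16.3 CPM in the KO libraries. Every KO library was below every WT library on this scale. Per transcript length, as TPM among protein-coding genes, the libraries overlapped, at 29.7, 38.4 and 18.4 TPM in WT and 30.6, 30.2 and 30.6 TPM in KO. The transcript was not absent from any of them, and the deleted stretch of the gene is not given in the sources used here, so that the genotype rests on the labels. The epithelial keratins *Krt5* (245 to 442 CPM) and *Krt8* (1238 to 1950 CPM) were detected in all 6 libraries. Fibroblast markers were detected as well: the 8 listed genes, led by collagens, summed to 7401, 2309 and 7776 CPM in WT and to 4299, 2612 and 5928 CPM in KO libraries. Endothelial markers summed to between 112 and 620 CPM.

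All 41 genes passed edgeR's filter on low counts, with 30 to 3926 counts in a library, and were tested among 21236 genes. None passed the test between the genotypes: in edgeR, 0 of 41 reached an adjusted p of 0.05 or lower together with a log2 fold change of 0.58 or more in either direction, where 0.0% of all genes tested did so as higher and 0.0% as lower. DESeq2 with apeglm shrinkage called 0 of the 41 genes too, beside 0.167% of all genes with an adjusted p. At an unadjusted p under 0.05, edgeR gave 1 of the 41 genes, *Ift81*, which was higher in KO, where 5.32% of all genes tested reached it, 2.99% as higher and 2.33% as lower. *Ift81* also reached it with DESeq2 size factors and over protein-coding genes only. It did not with DESeq2 (unadjusted p = 0.104), without a filter, with at least 10 counts in every library or with a replicate block. Nor did it in the limma fits or when any 1 library was left out. The median log2 fold change over the 41 genes was 0.06, with a range from −0.57 to 0.64, and the median over all genes was 0.01. The fitted log2 fold change was above 0 for 28 of 41 genes, beside 51.6% of all genes tested, but for 8 of 41, with a median of −0.10, when log2(TPM + 1) values were fitted in limma, where the median of all genes was −0.06. With log2(TPM + 0.1), on TPM rescaled over protein-coding genes, 23 of 41 were above 0, with a median of 0.02 beside −0.01 for all genes. A direction of the group as a whole was thus not the same in every fit, and it differed between the TPM fits. In bulk RNA, fewer cells of a type cannot be told apart from less RNA per cell, and this holds for each value given here.

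The fitted difference was under 0.25 on the log2 scale, in either direction, for 37 of the 41 genes (90.2%), beside 55.2% of all genes tested. The biological coefficient of variation, the spread between mice beyond counting error, had a median of 18.6% over the 41 genes and of 29.8% over all genes, and the median standard error was 0.18 against 0.31 on the log2 scale. For 26 of the 41 genes the whole 95% interval of the log2 fold change lay within 0.58 of 0, which was the case for 29.4% of all genes. These 26 included 5 of 6 IFT-A genes, 5 of 7 IFT-B1 genes, 5 of 6 IFT-B2 genes and 3 of 3 kinesin-2 genes. They included 2 of 7 BBSome genes and 0 of 2 BBS chaperonin genes, which had the fewest counts. For the other genes the interval reached past 0.58 on at least 1 side. Both counts were chosen after the values had been seen. Small differences of this kind were not particular to the 41 genes. Of the 18 cilium assembly and trafficking genes read below, 17 (94.4%) were under 0.25. For 14 of the 18 (77.8%) the whole interval lay within 0.58 of 0. Of the 12 other IFT, motor and BBS genes, 7 (58.3%) were under 0.25 and 1 (8.33%) had the interval within 0.58 of 0.

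**Figure D1:**
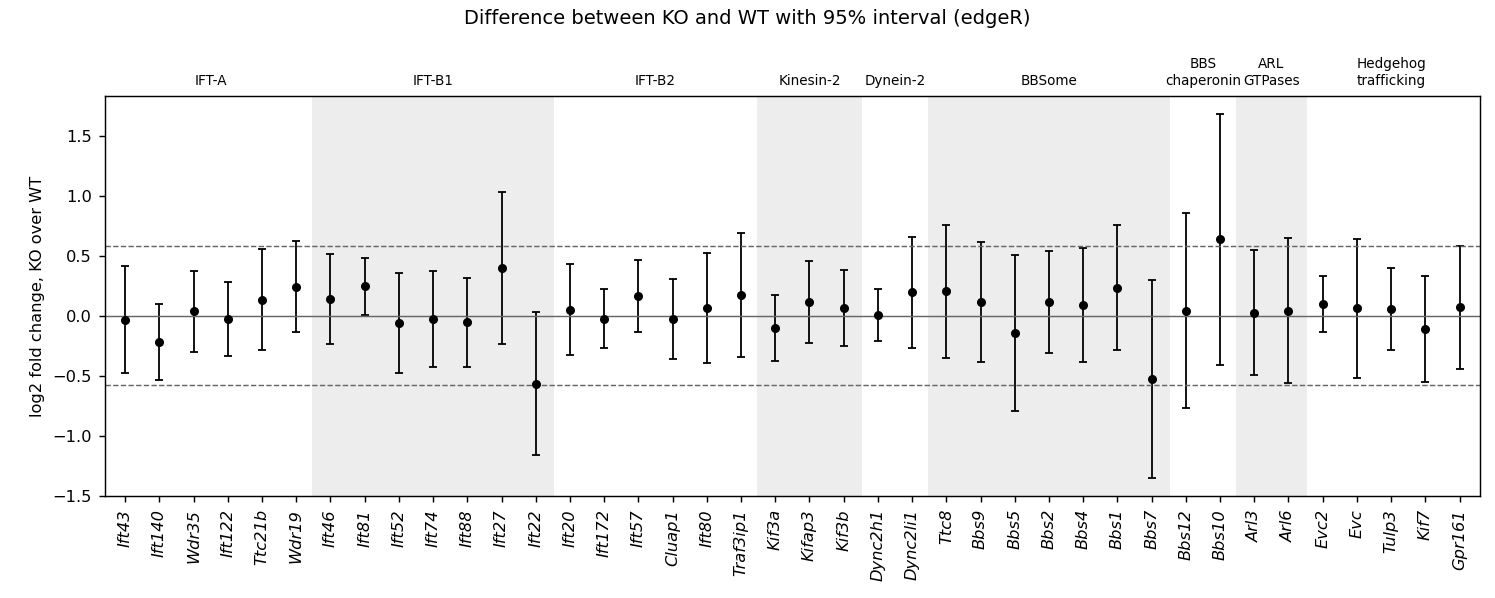
Log2 fold change of KO over WT (y axis) for 40 of the 41 genes (x axis), grouped by complex and ordered within it by level. Points are edgeR estimates, bars are 95% intervals, and dashed lines mark 0.58 in both directions. The bars of *Ift22*, *Bbs7* and *Bbs10* are wide, and the bar of *Ift81* runs from 0.01 to 0.48.

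IFT-A turns the trains around for the way back to the cell body and helps membrane proteins to enter. Its 6 genes had log2 fold changes from −0.22 (*Ift140*) to 0.24 (*Wdr19*), with 3 of 6 above 0. *Ift43*, a small subunit and the highest of the group per transcript length, stood at 17.1, 23.8 and 27.9 CPM in WT and at 23.9, 22.0 and 21.4 CPM in KO libraries. The KO values fell inside the WT range, and the log2 fold change was −0.03 (standard error 0.20). *Wdr19* (IFT144), the lowest per length and one of the genes with an X-box-like pair, had 20.9, 28.2 and 27.4 CPM in WT and 28.0, 28.3 and 34.1 CPM in KO libraries. Its genotypes overlapped, at a log2 fold change of 0.24 (standard error 0.17, edgeR adjusted p = 0.941). *Ift140* was the one gene of the group with a lower KO mean by more than 0.1 on the log2 scale, at 52.7 ± 5.66 CPM in WT and 45.3 ± 5.81 CPM in KO (SD, n = 3). *Ift122*, *Ttc21b* and *Wdr35* differed by −0.03, 0.14 and 0.04 on the log2 scale. Per length, *Ift122* had 31.0 ± 7.72 TPM in WT and 19.7 ± 3.72 TPM in KO (SD, n = 3), with every KO library (16.6, 23.8 and 18.8 TPM) below every WT library (39.7, 25.0 and 28.4 TPM), a gap that its counts, at 30.2 ± 2.49 and 29.6 ± 2.35 CPM, did not have.

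IFT-B1 is the core of the anterograde train, in which IFT81 and IFT74 form the tubulin-binding pair. *Ift81* (ENSMUSG00000029469, chromosome 5, 122550204 to 122614518 of GRCm38, minus strand) stood at 56.3, 52.2 and 52.0 CPM in WT and at 64.0, 66.5 and 59.8 CPM in KO libraries. All KO libraries lay above all WT libraries, which made *Ift81* the 1 gene of 41 whose genotypes did not overlap in CPM, where 11.7% of all genes tested did not overlap, 6.23% with KO above and 5.5% with KO below. The means were 53.5 ± 2.44 CPM in WT and 63.4 ± 3.41 CPM in KO (SD, n = 3), at a log2 fold change of 0.24 (standard error 0.10, 95% interval 0.01 to 0.48). The edgeR adjusted p was 0.906, and the exact permutation test over the 6 libraries, two-sided, gave 0.1, a value that this design cannot go below. *Gm43541*, annotated inside *Ift81* on the same strand, had 15.2 ± 2.50 CPM in WT and 19.8 ± 2.95 CPM in KO, and the sum of both was 68.7 ± 2.27 and 83.2 ± 6.31 CPM (SD, n = 3), again without overlap. Per length the genotypes of *Ift81* overlapped, at 93.0 ± 16.4 TPM in WT and 102.1 ± 11.7 TPM in KO (SD, n = 3). Other genes were without overlap on that scale, which was 3 of 41, beside 10.9% of all genes tested: *Ift27* with KO above (5.24% of all genes), and *Ift122* and *Kif3a* with KO below (5.68%). Their CPM overlapped.

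*Ift74*, the partner of *Ift81*, differed by −0.03 on the log2 scale (standard error 0.17). *Ift46*, the highest of all 41 genes per length, had 33.1, 48.1 and 34.5 CPM in WT and 41.1, 46.2 and 40.1 CPM in KO libraries. The highest library was a WT library, and the log2 fold change was 0.14 (standard error 0.16). *Ift22*, a small GTPase-like subunit with 2 X-box-like pairs in its promoter window, stood at 9.88, 12.7 and 9.17 CPM in WT and at 9.23, 6.48 and 5.75 CPM in KO libraries. One KO library lay inside the WT range by a narrow margin, and the other two lay below all of WT. The log2 fold change was −0.57 (standard error 0.26, 95% interval −1.17 to 0.03, edgeR adjusted p = 0.906), the lowest value of the 41 genes. *Ift27*, the other small GTPase of the particle, had the opposite sign, with 6.95 ± 1.57 CPM in WT and 9.16 ± 2.21 CPM in KO (SD, n = 3) and a log2 fold change of 0.40 (standard error 0.28), which was 0.17 without KO replicate 3 and 0.23 without WT replicate 3. Per length it stood at 20.9, 20.99 and 13.7 TPM in WT and at 23.3, 24.8 and 31.9 TPM in KO libraries, with no overlap. *Ift52* (−0.06) and *Ift88* (−0.06) changed by less than their standard errors on the log2 scale.

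IFT-B2 is the peripheral part of the train that binds kinesin. *Ift20*, which also works at the Golgi and which the study removed in cultured human cells, is on chromosome 11 (78536361 to 78541737). It had 35.6, 27.5 and 38.6 CPM in WT and 40.2, 31.8 and 33.1 CPM in KO libraries. Of the KO libraries, 2 fell inside the WT range, and the log2 fold change was 0.05 (standard error 0.17, 95% interval −0.33 to 0.43). *Traf3ip1* (IFT54), the lowest of the group per length, had 19.7, 21.04 and 34.6 CPM in WT and 31.3, 27.7 and 25.9 CPM in KO libraries. Both the lowest and the highest library were WT, and the log2 fold change was 0.17 (standard error 0.23), from 0.0055 without WT replicate 1 to 0.47 without WT replicate 3. *Ift172*, the largest subunit, was among the steadiest genes, at 46.9 ± 3.34 CPM in WT and 46.2 ± 0.522 CPM in KO (SD, n = 3). *Ift57*, which carries 2 X-box-like pairs, differed by 0.17 on the log2 scale (standard error 0.13), *Ift80* by 0.06 (standard error 0.20) and *Cluap1* by −0.03 (standard error 0.15).

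**Figure D2:**
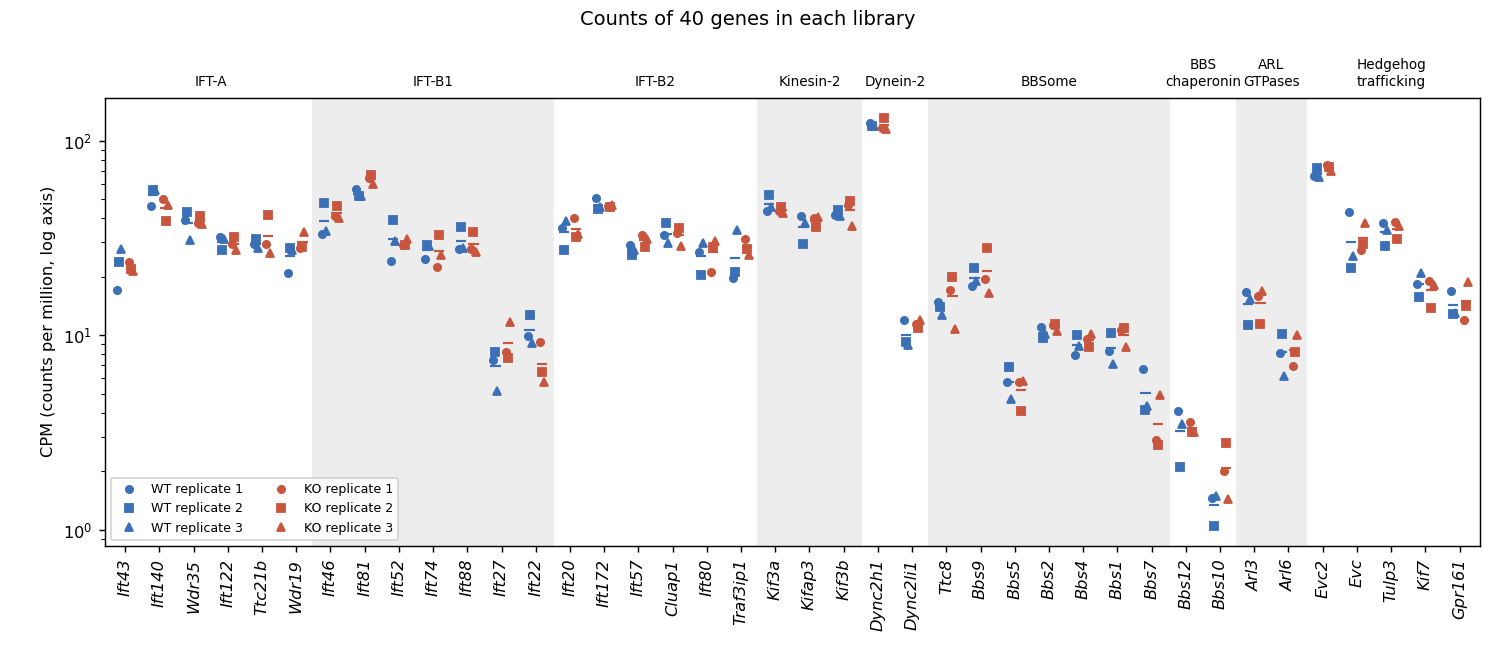
CPM (y axis, log scale) of 40 of the 41 genes (x axis) in each library. Circles, squares and triangles are replicates 1, 2 and 3, blue is WT, red is KO, and short lines are the means of 3 libraries. Red and blue points overlap for every other gene shown, and for *Ift81* the 3 red points, 59.8 to 66.5 CPM, lie above the blue points, 52.0 to 56.3 CPM.

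Kinesin-2 draws the trains toward the tip. *Kif3a*, the motor subunit that the study also removed in cultured cells, is on chromosome 11 (53567379 to 53601967). It stood at 43.4, 52.7 and 45.8 CPM in WT and at 43.7, 45.8 and 42.7 CPM in KO libraries. Of the KO libraries, 2 fell inside the WT range, and the log2 fold change was −0.10 (standard error 0.12, 95% interval −0.37 to 0.17). Per length every KO library, at 42.5, 43.5 and 44.7 TPM, was below every WT library, at 49.9, 56.9 and 46.9 TPM. *Kif3b*, the second motor subunit, had 41.7, 43.9 and 40.99 CPM in WT and 47.0, 49.0 and 36.6 CPM in KO libraries. The KO libraries lay on both sides of WT, at a log2 fold change of 0.07 (standard error 0.14). *Kifap3*, which links the motor to cargo, differed by 0.11 on the log2 scale (standard error 0.15). Although KIF3A and KIF3B work as a pair, *Kif3a* was the higher RNA per length in each library, with a ratio of 2.29 to 3.38 TPM per TPM. The ratio averaged 3.06 ± 0.276 in WT and 2.57 ± 0.437 in KO (SD, n = 3), and its genotypes overlapped.

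*Dync2h1*, the heavy chain of dynein-2, had the most counts of the 41 genes, at 122.7, 119.6 and 119.1 CPM in WT and at 116.9, 131.1 and 114.8 CPM in KO libraries. The WT libraries fell between the KO libraries. Its log2 fold change of 0.01 (standard error 0.10, 95% interval −0.21 to 0.22) was the nearest to 0 of the 41 genes. *Dync2li1*, the light intermediate chain, had 11.9, 9.21 and 8.94 CPM in WT and 11.4, 10.95 and 12.05 CPM in KO libraries. One WT library lay among the KO values, and the log2 fold change was 0.19 (standard error 0.20). Because its transcript is long, *Dync2h1* was only at rank 16 of 41 per length.

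The BBSome genes were lower and more variable. *Ttc8* (BBS8), the highest of the group per length, had 14.9, 14.0 and 12.7 CPM in WT and 17.1, 20.0 and 10.7 CPM in KO libraries. Its KO libraries lay on both sides of WT, at a log2 fold change of 0.20 (standard error 0.24). *Bbs7*, the lowest of the group and a gene with an X-box-like pair, had 6.74, 4.13 and 4.34 CPM in WT and 2.88, 2.74 and 4.92 CPM in KO libraries. KO replicate 3 lay above 2 of the WT libraries, so that the genotypes overlapped at a log2 fold change of −0.53 (standard error 0.36, 95% interval −1.35 to 0.30, edgeR adjusted p = 0.941). It was −0.28 without WT replicate 1 and −0.87 without KO replicate 3. Of the other subunits, *Bbs1* (0.23), *Bbs2* (0.12), *Bbs4* (0.09) and *Bbs9* (0.12) were above 0 on the log2 scale and *Bbs5* (−0.14) was below it.

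BBS10 and BBS12 are chaperonin-like proteins that assemble the BBSome. *Bbs12* had 4.08, 2.10 and 3.49 CPM in WT and 3.60, 3.17 and 3.20 CPM in KO libraries. Its KO values fell inside the WT range, at a log2 fold change of 0.04 (standard error 0.36). *Bbs10* had 1.46, 1.05 and 1.497 CPM in WT and 2.00, 2.80 and 1.44 CPM in KO libraries. The other two KO libraries were above WT, but KO replicate 3 lay below 2 of the WT libraries. The log2 fold change of 0.64 (standard error 0.46, 95% interval −0.41 to 1.68, edgeR adjusted p = 0.941) was the highest value of the 41 genes and had the widest interval, on 30 counts in the lowest library. Without KO replicate 2 it was 0.35.

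The ARL GTPases load and unload lipid-modified cargo. *Arl3*, which releases such cargo inside the cilium, had 16.8, 11.3 and 15.3 CPM in WT and 15.99, 11.4 and 16.8 CPM in KO libraries. Replicate 2 was the lowest library of *Arl3* in both genotypes, and the log2 fold change was 0.03 (standard error 0.23). *Arl6* (BBS3), which recruits the BBSome to the membrane, had 8.10, 10.2 and 6.18 CPM in WT and 6.95, 8.25 and 10.0 CPM in KO libraries. Its ranges overlapped, at a log2 fold change of 0.04 (standard error 0.27).

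Hedgehog trafficking was the last group. *Evc2*, which holds Smoothened signaling at the ciliary base together with EVC, had 65.7, 72.7 and 64.9 CPM in WT and 74.97, 73.01 and 69.6 CPM in KO libraries. One KO library fell inside the WT range, and the log2 fold change was 0.10 (standard error 0.10, 95% interval −0.14 to 0.33). Its neighbour and partner *Evc* varied more, from 22.1 to 43.0 CPM in WT and from 27.5 to 37.9 CPM in KO libraries. The ratio of *Evc2* to *Evc* per length ran from 1.06 to 3.46 across the libraries, with both genotypes spread over most of that range. *Gpr161*, a receptor that restrains the pathway and the lowest of the group per length, had 16.8, 12.9 and 13.0 CPM in WT and 11.9, 14.1 and 18.8 CPM in KO libraries. Its lowest and highest library were both KO, at a log2 fold change of 0.07 (standard error 0.22). *Tulp3*, which brings GPR161 into the cilium with IFT-A, differed by 0.06 on the log2 scale (standard error 0.15), and *Kif7*, the kinesin that organizes the ciliary tip, by −0.11 (standard error 0.19).

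Levels of different genes were compared per transcript length, as TPM rescaled to a fixed sum over protein-coding genes in each library. The 41 genes spanned 120-fold, from 1.33 ± 0.453 TPM for *Bbs10* to 159.8 ± 31.3 TPM for *Ift46* (SD over 6 libraries), with a median of 26.2 TPM. After *Ift46* came *Ift20* (139.1 ± 25.3), *Ift81* (97.6 ± 13.7), *Ift43* (85.8 ± 12.1) and *Ift172* (73.1 ± 8.97 TPM). The lowest were *Bbs12* (3.16 ± 0.693), *Bbs7* (5.12 ± 2.74), *Gpr161* (5.97 ± 1.51) and *Bbs1* (8.18 ± 3.22 TPM). For all 40 neighbours in this order the ranges over the 6 libraries overlapped. Within libraries, the higher gene of a pair was higher in all 6 for 5 of the 40 pairs, among them *Ift20* over *Ift81*, *Ift172* over *Ift57* and *Bbs12* over *Bbs10*. The order as a whole was alike in each library, with Spearman's rho between 0.855 and 0.924 over the 41 genes in 15 pairs of libraries that share gene lengths and protocol. The median TPM was 51.2 for IFT-B2, 31.8 for IFT-B1, 25.8 for IFT-A, 9.89 for the BBSome and 2.25 for the BBS chaperonins. Summed over the 41 genes, the level lay between 1365 and 1486 TPM in WT and between 1390 and 1491 TPM in KO libraries.

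**Figure D3:**
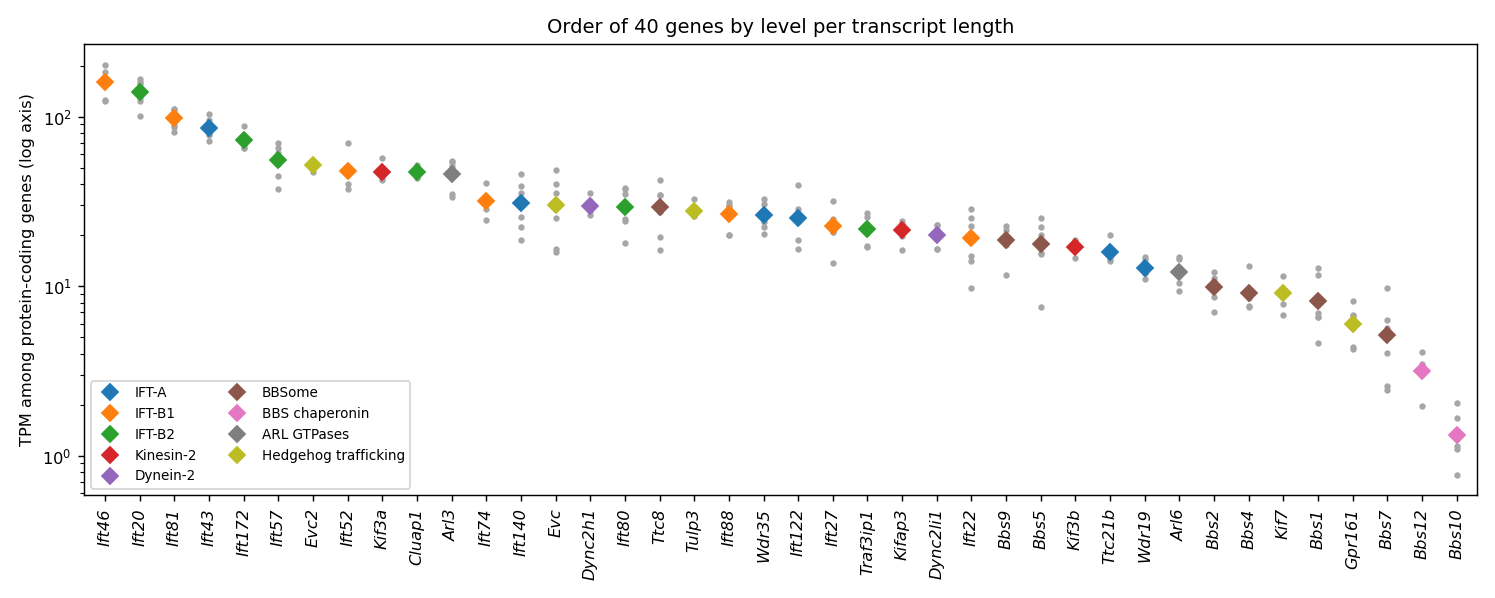
Level per transcript length (y axis, TPM among protein-coding genes, log scale) of 40 of the 41 genes ordered by their mean (x axis). Diamonds are means of 6 libraries, coloured by complex, and grey dots are single libraries. *Ift46* at 159.8 and *Ift20* at 139.1 TPM, both IFT-B genes, come first, and both BBS chaperonin genes come last.

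The libraries differed in how often each was the lowest or the highest of the 6. Replicate 2 of WT was the lowest of the 6 libraries for 11 of the 41 genes and the highest for 10, beside 19.9% and 17.5% of all genes tested. Replicate 2 of KO was the lowest for 4 genes and the highest for 10 (16.3% and 18.1% of all genes), and replicate 3 of KO was the lowest for 10 and the highest for 8 (15.8% and 16.8%). Replicate 1 of WT was the lowest for 6 and the highest for 6 (15.5% and 15.7%). Replicate 3 of WT was the lowest for 8 and the highest for 3 (17.9% and 16.1%), and replicate 1 of KO for 2 and 4 (14.6% and 15.8%). Within each genotype, replicate 2 was the lowest library for 9 genes in both (22.0%, beside 16.7% of all genes tested). Both replicate 2 libraries had the least of several other cell types: fibroblast markers summed to 2309 CPM in WT replicate 2 and 2612 CPM in KO replicate 2, against 4299 to 7776 CPM in the other 4 libraries. The 4 pericyte markers summed to 70.5 and 89.0 CPM there, against 115 to 256 CPM, and the 5 adipocyte markers to 52.3 and 94.8 CPM, against 161 to 309 CPM. Luminal markers were highest there, at 6639 and 7181 CPM, against 4059 to 6087 CPM. The part of these cell types in the values of the 41 genes was not tested.

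**Figure D4:**
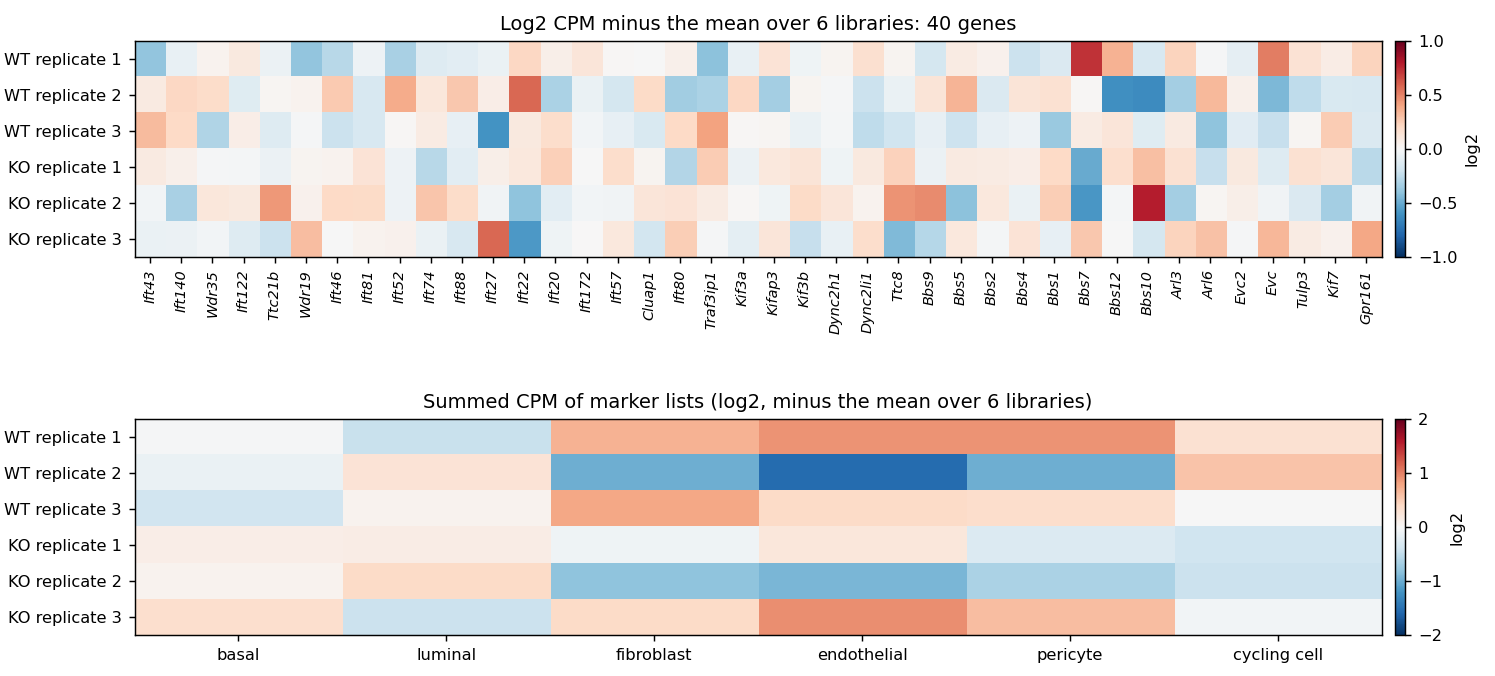
Deviation of each library from the mean of 6 on the log2 scale. The upper panel shows the CPM of 40 of the 41 genes (columns) in each library (rows), and the lower panel shows summed CPM of marker lists, on a wider colour scale; red is above the mean and blue below. Fibroblast, endothelial and pericyte markers are low in replicate 2 of both genotypes, and the genes shown have no column in which the genotypes part in CPM except *Ift81*.

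Between the genotypes, all 11 basal markers had a positive log2 fold change (median 0.41) and 0 of 6 cycling cell markers did (median −0.59), with adjusted p values of at least 0.849 and 0.906 in edgeR. In DESeq2, *Tagln*, a smooth muscle gene of the basal list named after its values were seen, had an adjusted p of 0.0304, and the other markers of both lists had at least 0.0633. The basal sum was 4716 to 6051 CPM in WT and 6428 to 7743 CPM in KO libraries, and the cycling sum 1028 to 1530 CPM in WT and 768 to 994 CPM in KO libraries. Both sums were without overlap. On the same scale the 41 genes summed to 1136, 1152 and 1126 CPM in WT and to 1168, 1199 and 1151 CPM in KO libraries, so that KO replicate 3 fell narrowly below WT replicate 2 and the other two KO libraries were above all of WT. Immune markers were low, and their sum over 5 genes was also without overlap, at 15.7 to 28.7 CPM in WT and 31.7 to 65.4 CPM in KO libraries. All 5 had a positive log2 fold change (median 1.17). Of these, *Cd79a*, a B cell receptor subunit (log2 fold change 2.08, standard error 0.56), and *Ptprc*, which encodes the CD45 that the sort stained (1.25, standard error 0.39), had every KO library above every WT library, with adjusted p values of 0.152 and 0.158 in DESeq2. Luminal markers had 10 of 12 above 0 (median 0.09), fibroblast markers 2 of 8 (median −0.21), endothelial markers 3 of 5 (median 0.03) and pericyte markers 0 of 4 (median −0.50). Adipocyte markers had 1 of 5 above 0 (median −0.10) and skeletal muscle markers 1 of 5 (median −1.15), the latter on 5.74 to 41.8 CPM. Markers of multiciliated cells, whose motile cilia use the same IFT genes, summed to 5.21 to 7.92 CPM over the 7 of 8 genes that were matched, and *Tekt1* was at 0 counts in 5 of 6 libraries. *Foxj1*, on the same list, had 61 to 152 counts in a library (2.30 to 4.86 CPM), at a log2 fold change of 0.54 (standard error 0.35). Of the 3 multiciliated cell markers tested, 1 was above 0 (median −0.11). The parts of all these cell types in the result were not tested.

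Other genes of the pathway were read from 4 further lists. Of 12 other IFT, motor and BBS genes, 0 passed both thresholds in edgeR, 0 had an unadjusted p under 0.05, and 7 had a positive log2 fold change, with a median of 0.06. Of 18 cilium assembly and trafficking genes, which dock the mother centriole or bring vesicles to it, 0 passed and 11 were above 0, with a median of 0.05. *Cep97*, which with CCP110 caps the mother centriole and holds back ciliogenesis, was the 1 gene of these lists with an unadjusted p under 0.05. It stood at 9.40, 7.70 and 6.87 CPM in WT and at 15.4, 9.68 and 13.4 CPM in KO libraries. Each KO library was above each WT library, at a log2 fold change of 0.68 (standard error 0.25, edgeR adjusted p = 0.906), beside 6.23% of all genes tested with KO above. Per length *Cep97* overlapped, at 6.17 ± 3.97 TPM in WT and 6.84 ± 0.475 TPM in KO (SD, n = 3). Of the genes on these lists, *Ttc26*, an IFT-B subunit, and *Rab11a*, a GTPase of recycling vesicles, also had every KO library above every WT library in CPM, with log2 fold changes of 0.57 (standard error 0.25) and 0.12 (standard error 0.10), and both overlapped per length. Per length, *Lztfl1*, which regulates BBSome entry into the cilium, was the 1 gene of these lists without overlap, with KO below (5.68% of all genes tested): it had 42.7, 38.1 and 60.6 TPM in WT and 31.2, 23.8 and 27.2 TPM in KO libraries. Its CPM overlapped, at a log2 fold change of −0.22 (standard error 0.18). These 3 genes were named after their values were seen. *Ccp110*, the partner of *Cep97*, differed by −0.14 on the log2 scale (standard error 0.14).

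Of the RFX factors, which bind the X-box, and *Foxj1*, the factor of motile cilia, 6 of 9 were tested, 0 passed and 3 were above 0. *Rfx7* had the most counts, at 111 CPM in WT and 110 CPM in KO on average, followed by *Rfx5*, *Rfx3* and *Rfx1*, and *Rfx6* had 0 counts in every library. Per length the order differed: *Rfx7* (36.9 TPM) and *Rfx5* (35.4 TPM) were close, and *Rfx1* (15.9 TPM) lay above *Rfx3* (13.2 TPM). Of the 4 Hedgehog target genes, 0 passed and 2 were above 0, with a median of 0.02, and *Ptch1*, the receptor that is also a target, differed by 0.10 on the log2 scale (standard error 0.17).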

How the data were processed

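Sorted cells of 3 WT and 3 KO mice gave 1 RNA-seq library each, made by the authors from 1 ng of total RNA with a stranded kit that depletes ribosomal fragments. The authors quantified paired-end reads with Salmon 1.2.1 on an mm10 transcriptome with the genome as decoy, and the deposited values are estimated counts per gene, given as whole numbers without scaling, and log2(TPM + 1). Of 54418 identifiers, 54166 matched GENCODE M21 (GRCm38).

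The 41 genes and all lists were chosen with earlier results of these data known. Counts were tested over all genes with edgeR 4.0.16 (filterByExpr, TMM, quasi-likelihood test, R 4.3.3), without a block, and a gene was called at 0.05 or lower for the adjusted p and 0.58 or more for the log2 fold change, up or down. Standard errors were derived from the test's p and degrees of freedom. Single values were also compared by the exact permutation test. TPM were recovered from the log2 values and rescaled over protein-coding genes, which held 8.98% to 11.4% of the deposited TPM. A gene was given by library when its unadjusted p was under 0.05 or its genotypes did not overlap in CPM, when it was the highest or lowest of its group per length, or, for *Kif3a* and *Ift20*, because the study worked on it. Of the 41 genes, 40 are reported singly, and 1 is not reported here except within counts and medians. Any gene given in more detail than that was picked with its values in view. Of the 41 genes, 7 overlap another gene on their strand, so that counts may be shared between them.

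Alternatives were DESeq2 1.42.0 (shrinkage by apeglm 1.24.0), edgeR with the size factors of DESeq2, no filter, at least 10 counts in every library, protein-coding genes only, log2(TPM + 1) and log2(TPM + 0.1) in limma 3.58.1, a replicate block, each library left out, and TPM as deposited. The functions were tested on simulated data. P-values from the fits set the difference between genotypes against the spread between the 3 mice of a genotype. With 1 library per mouse, that spread includes differences in sorting and library preparation.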

Additional observations from a re-analysis of the deposited data

How the results depend on the processing

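In each of the 14 alternatives, 0 of the 41 genes passed both thresholds, and the lowest adjusted p of any was 0.738. Over all genes tested the count was 45 with DESeq2, 40 without a filter on low counts and 2 with log2(TPM + 0.1). At an unadjusted p under 0.05, 0 of the 41 genes remained past it with DESeq2, without a filter, with at least 10 counts in every library and with the replicate block, and 2 genes reached it in each limma fit (*Ift122* and *Bbs7* with log2(TPM + 1), *Ift122* and *Ift46* with log2(TPM + 0.1)). With 1 library left out this count ran from 0 to 1: it was 0 without WT replicate 1, KO replicate 2 or KO replicate 3, and the 1 gene was *Ift46* without WT replicate 2, *Traf3ip1* without WT replicate 3 and *Ift22* without KO replicate 1. The median log2 fold change over the 41 genes was −0.10, with 8 above 0, with log2(TPM + 1), and 0.02, with 23 above 0, with log2(TPM + 0.1). It lay between 0.03 and 0.08, with 23 to 28 above 0, with 1 library left out. The labels do not say whether mice of the same replicate number were paired. Same-numbered deviations correlated at −0.02, 0.17 and 0.02, which cannot decide this with so few mice. The block gave no call among the 41 genes.

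Of the 41 genes, 11 had the same direction in all 14 alternatives, 20 in the 8 that keep every library and 15 with each library left out. *Ift81* was among the last. *Dync2h1* changed sign in DESeq2 (−0.0028), with DESeq2 size factors (−0.0045), without a filter (−0.00032), with at least 10 counts (−0.012) and over protein-coding genes (−0.0059). With log2(TPM + 1) the median over all genes tested was −0.064, and a negative value nearer to 0 than that lay above the median gene. The direction changed with log2(TPM + 1) for *Ttc21b* (−0.029), *Wdr19* (−0.091), *Wdr35* (−0.22), *Ift81* (−0.012), *Ift20* (−0.12), *Ift80* (−0.10), *Kif3b* (−0.074), *Kifap3* (−0.035), *Dync2h1* (−0.033), *Bbs1* (−0.046), *Bbs4* (−0.19), *Bbs9* (−0.14), *Ttc8* (−0.060), *Bbs12* (−0.023), *Arl3* (−0.11), *Arl6* (−0.075), *Tulp3* (−0.15), *Evc* (−0.050) and *Evc2* (−0.15), and with log2(TPM + 0.1) for *Wdr35* (−0.15), *Ift74* (0.076), *Bbs4* (−0.22), *Bbs9* (−0.086), *Tulp3* (−0.050) and *Evc2* (−0.017). Without 1 library it changed for *Arl3* (−0.12 to 0.18), *Arl6* (−0.12 to 0.24), *Bbs12* (−0.19 to 0.23), *Bbs4* (−0.0084 to 0.18), *Bbs5* (−0.27 to 0.0018), *Bbs9* (−0.14 to 0.26), *Cluap1* (−0.10 to 0.069), *Dync2h1* (−0.063 to 0.026), *Evc* (−0.12 to 0.39), *Gpr161* (−0.15 to 0.21), *Ift122* (−0.10 to 0.0097), *Ift172* (−0.062 to 0.018), *Ift20* (−0.079 to 0.15), *Ift43* (−0.23 to 0.13), *Ift52* (−0.24 to 0.13), *Ift74* (−0.20 to 0.087), *Ift80* (−0.076 to 0.20), *Ift88* (−0.18 to 0.076), *Kif3b* (−0.025 to 0.17), *Kif7* (−0.21 to 0.0098), *Kifap3* (−0.013 to 0.20), *Ttc21b* (−0.089 to 0.25), *Ttc8* (−0.0011 to 0.41), *Tulp3* (−0.042 to 0.13) and *Wdr35* (−0.089 to 0.15). Without a change of sign, leaving out 1 library moved 12 genes by over 1.5 times: *Bbs1* (0.12 to 0.38), *Bbs10* (0.35 to 0.83), *Bbs2* (0.08 to 0.15), *Bbs7* (−0.87 to −0.28), *Dync2li1* (0.12 to 0.32), *Evc2* (0.06 to 0.15), *Ift140* (−0.32 to −0.13), *Ift27* (0.17 to 0.53), *Ift46* (0.02 to 0.33), *Kif3a* (−0.18 to −0.02), *Traf3ip1* (0.0055 to 0.47) and *Wdr19* (0.10 to 0.32). The ratio of the highest to the lowest level was 122 with TPM as deposited. The cause was not tested. Precision is limited by 3 mice per genotype. *Bbs10*, *Bbs12* and *Bbs7* had few counts, and also a biological coefficient of variation of 41.3%, 34.0% and 34.5%, beside a median of 18.6% over the 41 genes.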
